A study of Rattus norvegicus with 48 samples.

Results

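The cytosolic ribosomal protein genes were followed in rat lung after inhalation of oil vapor. Members were taken by symbol: Rpl or Rps with a number, and Rplp0, Rplp1, Rplp2 and Rpsa. The Rps6k kinases and symbols that mark pseudogenes were left out. Of 30045 genes, 91 matched, and 81 averaged at least 1 CPM (counts per 1000000 gene counts) over all libraries. They comprised 43 large subunit and 29 small subunit genes, 8 paralogs of another member, and Rps19bp1, which encodes a protein that binds one. The 10 matching genes below 1 CPM were Rpl30l1, Rpl35a, Rpl39l, Rpl3l, Rpl7a, Rps15al4, Rps19l1, Rps27l3, Rps6 and Rps9. Their mean levels ran from 0 for Rps15al4 to 0.860 CPM for Rpl3l, just under the minimum. Rpl35a, Rpl7a, Rps6 and Rps9 encode core proteins of every ribosome. With such rows near empty, a plain symbol does not always hold a protein's whole expression in the deposited counts.

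All 48 animals were male Sprague-Dawley rats of about 200 to 250 g, housed in pairs and placed in a whole-body inhalation chamber. Filtered air or oil vapor at 300 ppm was given for 6 hours on 1 day, or for 6 hours a day on 4 days a week over 4 weeks, 16 exposure days in all. Rats were killed 1 or 28 days later, which makes 8 groups of 6. Each lung library came from total RNA of a piece of lung, depleted of ribosomal RNA and primed at random.

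Cytosolic ribosomes join a small subunit, which reads the messenger RNA, to a large subunit, which forms the peptide bonds. Each ribosomal protein is present once or a few times per ribosome, and its messenger RNA usually begins with a cytosine followed by a run of pyrimidines, the 5′ terminal oligopyrimidine (TOP) tract. Through this tract the mTOR kinase and the RNA-binding protein Larp1 adjust translation of the whole family. Red cell precursors make ribosomes in bulk for hemoglobin synthesis, and mutations in genes such as RPS19 cause a congenital failure of red cell formation in humans.

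To show what the family shares at its transcription starts, 30 bases before and 20 bases from the annotated start of single members are printed from RefSeq (build GRCr8), 5′ to 3′, with capitals marking a TOP tract that begins at the start. The first 5 have one:
Rplp0 (chr12:46718371-46718420, - strand): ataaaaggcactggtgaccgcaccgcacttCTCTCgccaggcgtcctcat
Rplp1 (chr8:71290853-71290902, - strand): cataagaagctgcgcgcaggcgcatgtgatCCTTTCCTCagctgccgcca
Rpl37 (chr2:55942915-55942964, + strand): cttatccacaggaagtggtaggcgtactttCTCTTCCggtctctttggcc
Rpl35 (chr3:43165902-43165951, - strand): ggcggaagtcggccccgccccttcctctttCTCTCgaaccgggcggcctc
Rpl10a (chr20:6390503-6390552, + strand): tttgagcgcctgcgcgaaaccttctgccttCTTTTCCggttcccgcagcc
The next 4 have none at the annotated base:
Rpl24 (chr11:58128386-58128435, - strand): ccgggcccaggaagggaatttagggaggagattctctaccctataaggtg
Rpl4 (chr8:73566447-73566496, + strand): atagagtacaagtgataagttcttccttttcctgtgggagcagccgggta
Rpl41 (chr7:1563478-1563527, - strand): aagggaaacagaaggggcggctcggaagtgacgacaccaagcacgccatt
Rps16 (chr1:92770628-92770677, + strand): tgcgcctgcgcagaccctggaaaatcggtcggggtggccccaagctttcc
These genes were chosen because the results below turn on them. RefSeq gave a single start window for 61 members. A cytosine followed by at least 4 pyrimidines stood at the start of 22 of them (36.1%), against 2.63% of all 33469 windows in the table. Within 5 bases of the start, such a tract began in 37 members (60.7%) and in 17% of all windows. The letters CTTCCG, on either strand of the 300 base window, were in 36 members (59.0%) and in 16.6% of all windows. AAGATGG, on either strand, was in 8 members (13.1%) and in 7.01% of all windows. A match describes letters and not a bound site.

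Libraries held between 1537183 and 7157844 gene counts, and 3 counts corresponded to 0.419 to 1.95 CPM. Surfactant genes and other lung cell markers summed to between 7866 and 22090 CPM, so lung tissue was present in each library. Animal 43 (oil vapor, 16 exposures, 1 day) was the shallowest and had the lowest lung marker sum. It also had the highest erythroid sum, 4.45% of its counts over 12 red cell genes, against 0.138% to 1.47% in the other 47 libraries. The next highest was animal 5 (oil vapor, 1 exposure, 1 day). Counts of the heme enzyme gene Alas2 were alike between the schedules. With animals put in number order in each group and matched by rank, r was 0.997 over 24 pairs, of which animals 5 and 43 form one. The erythroid levels of both schedules may therefore not be independent, though Alas2 was the only erythroid gene paired this way. Counts of the surfactant gene Sftpc gave r = 0.319, those of Rps16 0.036 and those of Rpl36al -0.05. The same pairing gave r = 0.786 for the mean ribosomal protein level and 0.267 without the pair of animals 5 and 43. What lies behind this likeness was not tested. Results of groups or fits that hold animal 43 are given with and without it where it moved them.

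Ribosomal protein genes took a steady share of the lung's gene counts. In air groups the share averaged 1.33% ± 0.0943 (SD, n = 6) at 1 day and 1.39% ± 0.0630 at 28 days on the single exposure schedule. On the 16 exposure schedule it was 1.44% ± 0.0514 and 1.46% ± 0.0696. The lungs of rats that breathed oil vapor stayed near these values after 1 exposure, with 1.38% ± 0.147 at 1 day and 1.36% ± 0.0763 at 28 days. Bulk libraries cannot tell fewer cells of a type from less RNA per cell.

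The 16 exposure schedule set apart a high library at 1 day, and oil vapor from air lungs at 28 days. One day after 16 oil vapor exposures the share ran from 1.11% over a median of 1.40% to 2.54%, the highest value being that of animal 43, and averaged 1.34% ± 0.130 (n = 5) without it. At 28 days it ran from 1.28% over 1.32% to 1.37% in oil vapor lungs, and from 1.40% over 1.46% to 1.54% in air lungs. These groups did not overlap. The air lungs had the highest mean of the air groups given above. The oil vapor lungs lay near the mean of single exposure air lungs at 1 day. Scaled by TMM and averaged over members on the log2 scale, the level was -0.10 ± 0.040 in oil vapor and 0.09 ± 0.11 in air lungs, relative to the mean of 48 libraries, again with no overlap.

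**Figure D1:**
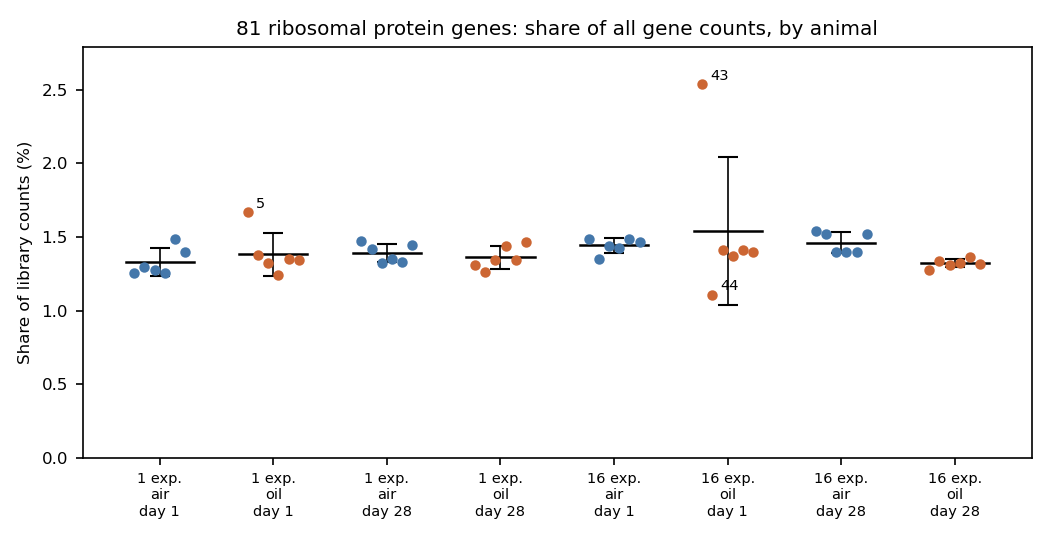
Share of all gene counts taken by the 81 ribosomal protein genes (percent, y axis) for each animal (points) in the 8 groups of 6 (air blue, oil vapor orange), with lines for the mean and bars for the SD. Animal 43 stands at 2.54% and animal 5 at 1.67%, and oil vapor lungs 28 days after 16 exposures lie between 1.28% and 1.37%, below all air lungs of that time and schedule.

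Animal 43 had most of the family raised above its group. Of 81 members, 64 (79.0%) were higher in CPM than in each of its 5 group mates, while 17.6% of all 15554 genes with a mean of at least 1 CPM were. For 55 members it was the highest of 48 libraries. The median member was 1.61 times the mean of the group mates, and the median gene 0.671 times. The rise was uneven among members. Rpl37, a small zinc-binding protein of the large subunit, had 585 CPM against a mean of 128 in the other 5. Rps29, its zinc-binding counterpart in the small subunit, had 1520 against 346 CPM, and Rplp0, the base of the stalk that binds elongation factors, 1818 against 491 CPM. Rpl18 and Rps26 stood close to their group mates, with ratios of 1.04 and 1.01. Among the members lower than in the group mates were the paralogs Rps27l, with 10.4 against 19.3 CPM, and Rps4y2, with 3.90 against 8.90 CPM. Rps19bp1 (3.25 against 6.78 CPM) and the large subunit gene Rpl36 (35.1 against 51.8 CPM) were also lower, and the paralog Rpl31l4 was higher (123 against 54.1 CPM).

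Animal 5 had a milder form of the same order. In it 47 members (58.0%) exceeded all 5 group mates, against 13.9% of all genes, and the median ratio was 1.19. Rpl37 had 247 CPM against a mean of 120, Rps29 702 against 353 and Rplp0 887 against 493. The 10 members with the highest ratio in animal 5 and the 10 in animal 43 had 7 in common: Rpl37, Rpl38, Rpl41, Rplp0, Rplp1, Rps16 and Rps29. Across 78 members, leaving out the sparse Rplp2, Rpl8 and Rpl36al, the log2 ratios in both animals correlated with r = 0.68 (Spearman's rho 0.737), and across all 80 with a count in both animals with r = 0.295 (rho 0.69). This is a description over genes that share a library and are not independent replicates. Animals 5 and 43 are also a pair of like rank in the Alas2 comparison above, so their libraries may not be independent. Members with a TOP tract at the annotated start had a median ratio of 1.61 in animal 43 and those without one 1.62, and in animal 5 the medians were 1.14 in both. Tracts that begin a few bases from the annotated start counted as absent. These medians therefore cannot separate members with a TOP tract from those without.

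Animal 44, of the same group as animal 43, stood apart in the opposite direction. Of its members 65 (80.2%) were below all 5 group mates, among them animal 43, against 15.3% of all genes. The median ratio was 0.711, of a mean that includes animal 43. Against the other 4 mates it was 0.806, with the median gene at 0.963, and 67 members (82.7%) were below all 4, as were 35.5% of all genes. Its library held 3605654 counts and its erythroid sum was 0.446%, near the median of 0.337% over all libraries.

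**Figure D2:**
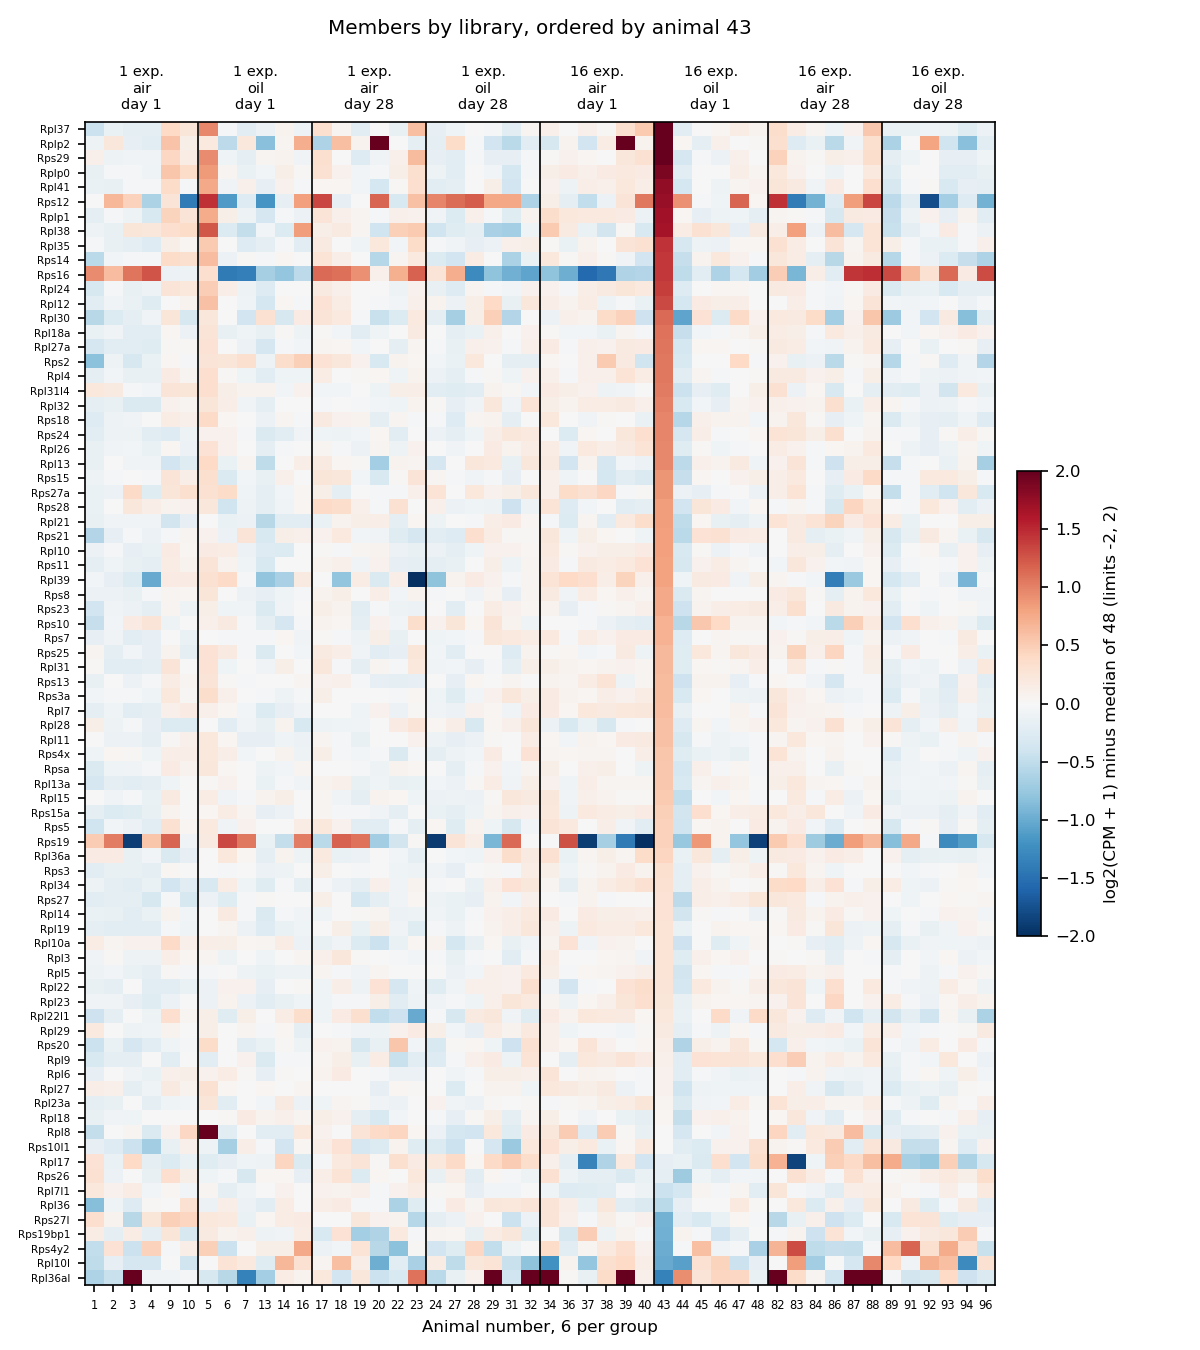
Members (80 of 81 as rows, ordered by animal 43) in each of 48 libraries (columns, animal numbers, 6 per group), as log2(CPM + 1) minus the member's median, with colors limited to -2 and 2. Animal 43 is a red column for most members, animal 5 a weaker one and animal 44 a pale blue one, while Rps12, Rps16, Rps19 and Rpl36al also differ between other libraries.

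Within groups most pairs of members were positively correlated, and pairs of other genes were not set beside them. After group means were removed, the median correlation between 2 members was 0.585 over 48 libraries, with 89.7% of 3240 pairs above 0, and 0.277 without animal 43, with 84.7% above 0. The mean level of the members followed that of other TOP and translation genes, a list of 23 measured elongation factors, initiation factor subunits and others, with r = 0.961 and 0.853 without animal 43. Genes known to regulate the family's translation or transcription, 19 including Mtor and Larp1, gave r = -0.903 and -0.587, and mitochondrial ribosomal protein genes -0.531 and 0.173. The erythroid list gave r = 0.779 and 0.472, neutrophil genes 0.774 and 0.524, and T cell genes 0.735 and 0.544. Within the 16 exposure schedule without animal 43 these lists gave 0.154, 0.412 and 0.406, and within the single exposure schedule 0.654, 0.580 and 0.626. Lung markers gave -0.675 over 48 libraries and 0.142 without animal 43, and library totals -0.534 and 0.298. Within the 16 exposure schedule without animal 43 they gave 0.676 and 0.615. These values describe libraries that share depth and composition, and the counts of each list are parts of one total. The list of nuclear-retained noncoding RNAs meant to read RNA quality had 1 of its 8 genes in the tables, at no more than 0.249 CPM, and gave no measure.

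The erythroid level marked some members more than others. With group means in the model, edgeR's quasi-likelihood test of the slope on log2 erythroid CPM, Benjamini-Hochberg adjusted over all genes, called 62 of 80 tested members higher and 0 lower. Among all genes 12.8% were called higher and 5.63% lower. The median slope was 0.18 for members and -0.009 for all genes. It rested largely on 2 libraries. Without animal 43, 14 of 80 members were called higher (3.51% of all genes), and without animals 5 and 43, 5 of 80 (2.22% of all genes), with a median slope of 0.002. The last 5 were Rpl37 (slope 0.31, SE 0.045), Rps29 (0.25, SE 0.040), Rplp0 (0.19, SE 0.037), Rpl35 (0.17, SE 0.039) and Rpl41 (0.17, SE 0.044), in log2 CPM per log2 erythroid CPM. This slope was added after seeing the data. Its test took all 48 libraries as independent, though Alas2 counts were alike between the schedules. Calls made within each schedule may likewise not be independent of one another. On the single exposure schedule alone 20 of 78 members were called higher (3.37% of all genes), and on the 16 exposure schedule 62 of 79 (14.6%). The fit of the single exposure schedule holds animal 5, and that of the 16 exposure schedule animal 43. How far each count rests on that library was not tested.

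**Figure D3:**
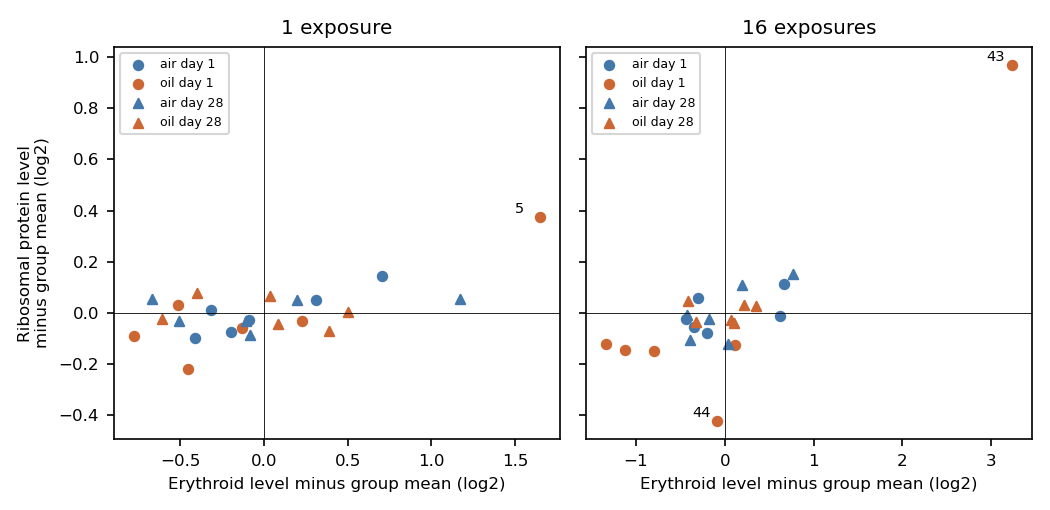
Mean ribosomal protein level of each animal against its erythroid level, both as log2 values minus the group mean, for the single exposure (left) and 16 exposure schedule (right), colored by air and oil vapor and shaped by day. Animal 5 lies at the upper right of the left panel and animal 43 at that of the right panel, animal 44 lies lowest, and the other points spread over a narrow band.

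One day after a single oil vapor exposure most members had slightly higher values than in air, and none passed the test. Of 78 tested, 65 were higher, where 53.3% of all genes were. The median was 0.08 on the log2 scale and 0.01 for all genes. Large and small subunit genes had like medians, 0.08 and 0.09. No member and no gene was called (0%), and at an unadjusted p below 0.05 stood 6 members higher (4.64% of all genes) and 1 lower (5.45%). DESeq2 called 1 member higher, Rps2, and 0.0661% of all genes. Without animal 5, the median was 0.01.

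Rps2 lies where messenger RNA enters the small subunit. Its CPM ran from 65.7 over a median of 86.6 to 99.2 in oil vapor lungs and from 39.6 over 65.3 to 72.5 in air lungs. The groups overlapped, but the median oil vapor lung was above the highest air lung. The difference was 0.49 (SE 0.12, adjusted p = 0.203, edgeR) and 0.49 with DESeq2 (adjusted p = 0.0247). Rps16, which reaches the decoding site, lay the other way, from 27.7 over 45.3 to 94.9 CPM against 69.4 over 131 to 182 CPM. Only the highest oil vapor value, that of animal 5, overlapped the air lungs, and the difference was -1.32 (SE 0.34, adjusted p = 0.243). Rpl18 alone had all 6 oil vapor values above all 6 air values, as 0.148% of all genes did.

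At 28 days after a single exposure the family showed no common shift. Of 78 members 36 lay above and 42 below air lungs (47.5% of all genes below), with a median of -0.005 and of 0.007 for all genes. No member was called (0% of all genes), and at an unadjusted p below 0.05 stood 5 lower (4.41% of all genes) and none higher. Rps16 was again the member with the smallest p, with 30.5 over a median of 40.3 to 124 CPM after oil vapor and 80.6 over 153 to 172 CPM after air, and 4 oil vapor lungs lay below the lowest air lung. The difference was -1.24 (SE 0.34, adjusted p = 0.295). Rps28, at the exit of the messenger RNA channel, averaged 42.1 ± 4.80 against 52.4 ± 6.79 CPM (-0.34, SE 0.098, adjusted p = 0.322), and Rpl3, near the peptide bond center, 352 ± 21.9 against 383 ± 29.1 CPM (-0.15, SE 0.053, adjusted p = 0.468). The erythroid sum was 2178 ± 623 CPM after oil vapor against 4556 ± 2458 CPM after air, and with the erythroid level as a covariate the median was 0.06.

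One day after 16 oil vapor exposures the direction of the family turned on animal 43. With it, 66 of 79 members were higher (54.7% of all genes), with a median of 0.13, and no member was called (0% of all genes called higher, 0.00666% lower). At an unadjusted p below 0.05 were 4 higher (5.8% of all genes) and 1 lower (3.49%). Without it, 59 of 79 members were lower (50.3% of all genes), the median was -0.11, and 25 members stood lower at an unadjusted p below 0.05 (6.06% of all genes). None was called, where 0.113% of all genes were called higher and 0.0994% lower. The oil vapor lungs left include animal 44, where 82.7% of members (35.5% of all genes) were below all 4 other mates. The median ratio of its members to these mates was 0.806. No fit left out both animal 43 and animal 44, so how far the lower median rests on animal 44 was not tested. The sum of erythroid genes in oil vapor lungs was 10137 ± 16862 CPM with and 3273 ± 1440 CPM without animal 43, and 3465 ± 1296 CPM in air lungs.

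Rpl7, an RNA-binding protein of the large subunit, had the smallest p without animal 43. Its CPM ran from 351 over a median of 388 to 409 in the 5 oil vapor lungs and from 403 over 449 to 457 in air lungs. The value of 351 CPM was that of animal 44. The groups overlapped between 403 and 409 CPM, and the difference was -0.20 (SE 0.054, adjusted p = 0.0949, edgeR). Rpl6 and Rps4x had all 5 oil vapor values below all air values, as 0.881% of all genes did. Animal 44 was the lowest of these oil vapor lungs for both genes. With animal 43 the smallest p values belonged to Rps16 (1.14, SE 0.44, adjusted p = 0.426), Rpl28 (0.35, SE 0.15, adjusted p = 0.459) and Rps10 (0.43, SE 0.19, adjusted p = 0.473). Rps16 ran from 46 over 55.7 to 202 CPM in oil vapor lungs and from 25 over 40 to 49.9 CPM in air lungs, and was 0.50 higher without animal 43 (adjusted p = 0.549).

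At 28 days after 16 exposures nearly all members were lower in oil vapor than in air lungs. Of 79 tested, 72 had lower values, where 47.5% of all genes did, with a median of -0.15 against 0.008 for all genes. Large subunit genes had a median of -0.16 and small subunit genes of -0.15. None was called (0% of all genes) in the fit of 24 libraries, which estimates 1 spread over 4 groups, animal 43 included. Leaving out animal 43, which belongs to neither group compared, changed the median little, to -0.16 with 73 lower (49.8% of all genes), but 4 members then fell (0.404% of all genes called lower): Rpl24, Rpl41, Rps29 and Rpl4. At an unadjusted p below 0.05 stood 36 members lower, against 6.09% of all genes, and 4 (2.19%) with animal 43 in the fit. The fit of only the 12 libraries compared called 5 members lower, these and Rps15a, and 0.934% of all genes, and limma-voom on 24 libraries called none of them, with adjusted p from 0.122 to 0.247.

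Rpl24, which bridges the subunits, ran from 154 over a median of 166 to 173 CPM after oil vapor and from 182 over 202 to 215 CPM after air. All oil vapor values lay below all air values. The difference was -0.31 (SE 0.055, adjusted p = 0.0201 without animal 43, and 0.98 with it). Rpl4, which lines the peptide exit tunnel, ran from 498 over 517 to 527 CPM against 535 over 586 to 617 CPM, also apart, with a difference of -0.21 (SE 0.047, adjusted p = 0.0482 without animal 43). Rps29 ran from 321 over 332 to 363 CPM against 367 over 391 to 499 CPM, apart as well (-0.33, SE 0.075, adjusted p = 0.0476). Rpl41, among the smallest of all ribosomal proteins, ran from 294 over 324 to 373 CPM against 348 over 414 to 466 CPM. These overlapped, and the difference was -0.34 (SE 0.075, adjusted p = 0.0442). Groups did not overlap for 5 members, Rps15a, Rpl21, Rpl24, Rpl4 and Rps29, all lower, as for 0.566% of all genes.

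Other quantities differed between the same groups. The erythroid sum was 2727 ± 552 CPM after oil vapor against 4672 ± 1611 CPM after air, with all 12 genes lower (median -1.82). All 11 heart muscle genes were lower (median -2.76), their sum running from 34.4 to 309 CPM against 194 to 1529 CPM, as were all 8 neutrophil (-0.39) and all 8 T cell genes (-0.27). The share of counts in the rows listed as Rnr1 and Rnr2 was 0.863% ± 0.444 in oil vapor and 1.72% ± 1.01 in air lungs, and libraries held 4754160 to 6545860 against 4290720 to 6082430 counts. The part of the heart muscle genes and of these rows was not tested. With the erythroid level as a covariate the median became 0.02 over all 24 libraries, with Rpl24 at -0.02 (SE 0.11), and -0.16 without animal 43, when 71 of 79 members were lower and none was called. In that last fit Rpl24 was at -0.26 (SE 0.063, adjusted p = 0.098), Rpl4 at -0.18 (SE 0.056, adjusted p = 0.249), Rpl41 at -0.24 (SE 0.082, adjusted p = 0.313) and Rps29 at -0.20 (SE 0.074, adjusted p = 0.363). In the fit with animal 43 the smallest p values were those of Rpl36al (-2.57, SE 0.70, adjusted p = 0.495), Rps12 (-1.27, SE 0.47, adjusted p = 0.836) and Rpl9 (-0.26, SE 0.099, adjusted p = 0.849).

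**Figure D4:**
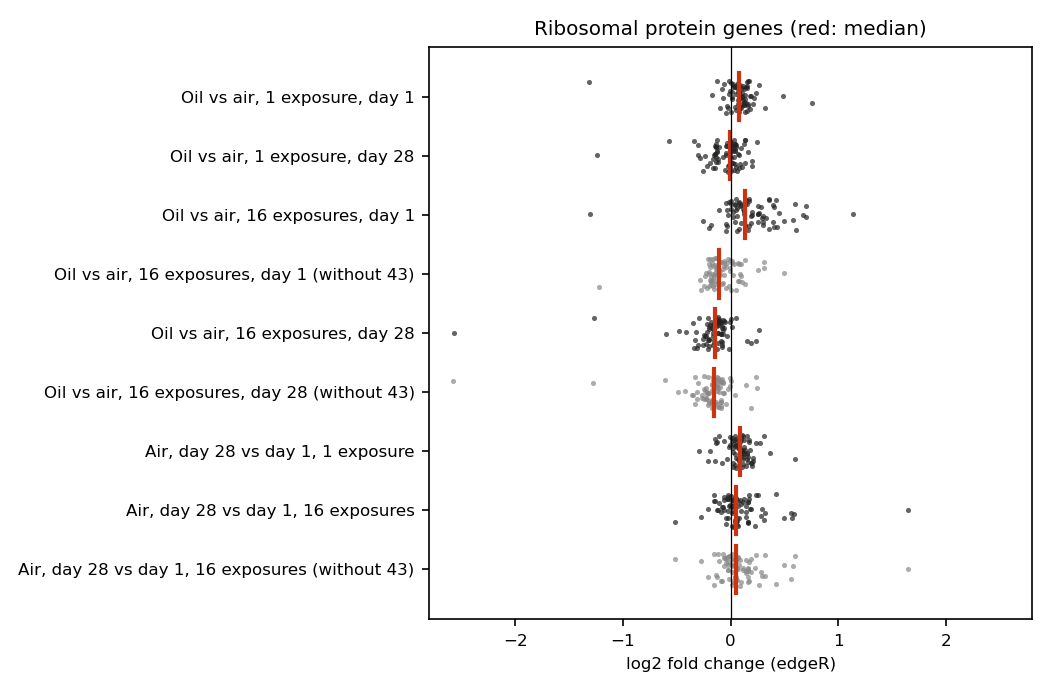
Log2 fold change (x axis) of each tested member (1 point a gene) in the 4 oil vapor against air comparisons and the 2 comparisons of air lungs over time, with the median in red and, for 16 exposures, values without animal 43 in gray. The median at 1 day after 16 exposures is 0.13 with and -0.11 without animal 43, and that at 28 days stays at -0.15 and -0.16.

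Air lungs compared between 28 and 1 days show how the family varied with no oil vapor. On the single exposure schedule 64 of 78 members were higher at 28 days (50.8% of all genes), with a median of 0.09. Of all genes 1.01% were called higher and 2.24% lower, and 1 member was called. At an unadjusted p below 0.05 stood 11 members higher (6.8% of all genes) and 1 lower (8.65%). Rpl10a, which forms the arm where spent transfer RNA leaves, fell from 128 over a median of 132 to 162 CPM at 1 day to 91.4 over 112 to 127 CPM at 28 days. The groups did not overlap, as for 1.9% of all genes, and the difference was -0.29 (SE 0.078, adjusted p = 0.0337, edgeR). The call was lost in the fit of 12 libraries (adjusted p = 0.0608), in that of 48 (adjusted p = 0.154) and without any of 6 of the 12 animals, with adjusted p up to 0.105 without animal 9. Cell division genes were lower at 28 days in 12 of 12 cases (median -0.84), and 8 of them were called.

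On the 16 exposure schedule 54 of 79 members were higher at 28 than at 1 day in air (49.5% of all genes), with a median of 0.05, and none was called (0.267% of all genes called higher, 0.06% lower). Without animal 43, which is in neither group, Rps16 and Rpl28 rose (1.05% of all genes called higher). Rps16 ran from 39.6 over 94.3 to 211 CPM at 28 days and from 25 over 40 to 49.9 CPM at 1 day, with overlap at the low end (1.65, SE 0.32, adjusted p = 0.00719, and 0.121 with animal 43). Rpl28 ran from 124 over 129 to 148 CPM against 96.5 over 111 to 122 CPM, without overlap, as for 0.66% of all genes (0.32, SE 0.079, adjusted p = 0.0409). With animal 43 in the fit, Rpl7l1, a nucleolar relative of Rpl7, was at 0.24 (SE 0.075, adjusted p = 0.199) and Rpl39 at -0.52 (SE 0.22, adjusted p = 0.411), its 28 day values all below its 1 day values, as for 1.11% of all genes. The 28 day air lungs enter this comparison and that with oil vapor at 28 days.

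The change of the oil vapor difference with time or schedule was tested as an interaction, and no member was called in any of 4 such tests. Between 28 and 1 days the difference moved by a median of -0.11 after 1 exposure (64 of 78 members lower, 49.9% of all genes, 0% of which were called) and of -0.31 after 16 exposures (72 of 79 lower, 50.7% of all genes, with 0% called lower and 0.00666% higher). The latter was -0.07 without animal 43 (53 of 79 lower). From 1 to 16 exposures it moved by 0.06 at 1 day (56 of 80 higher, 54.3% of all genes, with 0.0392% called higher and 0.00653% lower) and by -0.19 without animal 43 (70 of 80 lower, 52.3% of all genes, with 0.149% called higher and 0.013% lower). At 28 days it moved by -0.11 (61 of 80 lower, 50.3% of all genes, 0% of which were called). Animal 44, low for most members, was kept in the fits without animal 43. Rps16 had the smallest p with all libraries, between schedules at 1 day (2.42, SE 0.59, adjusted p = 0.104, and 1.81 without animal 43, adjusted p = 0.104). DESeq2 gave 2.59 for Rps16 (adjusted p = 0.0113), with 0.365% of all genes called higher.

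The other members with the smallest p in these tests were, between days after 1 exposure, Rps2 (-0.65, SE 0.16, adjusted p = 0.272), Rpl38 (-0.76, adjusted p = 0.616) and Rpl3 (-0.16, adjusted p = 0.634). After 16 exposures they were Rps12 (-1.94, SE 0.66, adjusted p = 0.488), Rpl9 (-0.40, adjusted p = 0.493) and Rpl38 (-1.02, adjusted p = 0.577). Between schedules they were Rpl8 (-2.69, adjusted p = 0.270) and Rps28 (0.45, adjusted p = 0.489) at 1 day. At 28 days they were Rpl36al (-3.95, SE 1.06, adjusted p = 0.891), Rps16 (1.48, adjusted p = 0.922) and Rpl9 (-0.34, adjusted p = 0.924). None of these passed. The value of Rpl8 rests on 1 library, animal 5, with 34 CPM against at most 2.56 CPM in the other 47.

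A few members also varied between animals beyond the pattern that most of the family shared. Rps16, itself among the members raised in animals 5 and 43, exceeded 80 CPM in 24 libraries (80.6 to 211 CPM) and lay between 25 and 70.2 CPM in the other 24. The level of 80 CPM is next to its median of 75.4 CPM, so the even split follows from that level. Above 80 CPM were 0 of 6 air lungs at 1 day and 4 of 6 at 28 days on the 16 exposure schedule, against 1 of 6 and 6 of 6 oil vapor lungs. On the single exposure schedule they were 4 and 6 of 6 air lungs and 1 and 2 of 6 oil vapor lungs. Rpl36al, a close relative of Rpl36a, lay between 11 and 14.8 CPM in 8 libraries and at 4.44 CPM or less in the other 40. The 8 were in 4 groups, 1 air lung at 1 day and 2 oil vapor lungs at 28 days after 1 exposure, and 2 air lungs at 1 day and 3 at 28 days after 16. Rplp2 was above 5 CPM in 3 libraries, with 40.6 CPM in animal 20, and at 2.1 CPM or less in 45. Rpl8 was high in animal 5 alone. Rplp2 and Rpl8 encode abundant core proteins, and these low rows, like those below 1 CPM, cannot be read as their total expression.

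Rps19, the gene named above for red cell failure, ran from 5.23 to 62.1 CPM and Rps12, at the head of the small subunit, from 6.52 to 85.2 CPM. The mean SD of log2 CPM within groups was widest for Rplp2 (1.36), Rpl36al (1.29) and Rps19 (1.00), and narrowest for Rpl5 (0.107), Rps3 (0.109) and Rpl3 (0.112). Rpl5 is part of the particle that carries 5S RNA into the large subunit, and Rps3 a protein of the messenger RNA entry. Processed copies of ribosomal protein genes are common in mammalian genomes, and the sources used here do not say how reads that match several copies were counted, so levels of single members are uncertain where near-identical copies exist. The 9 pseudogene symbols left out included Rpl37a-ps1 at a mean of 184 CPM and Rpl6-ps1 at 48.1 CPM.

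**Figure D5:**
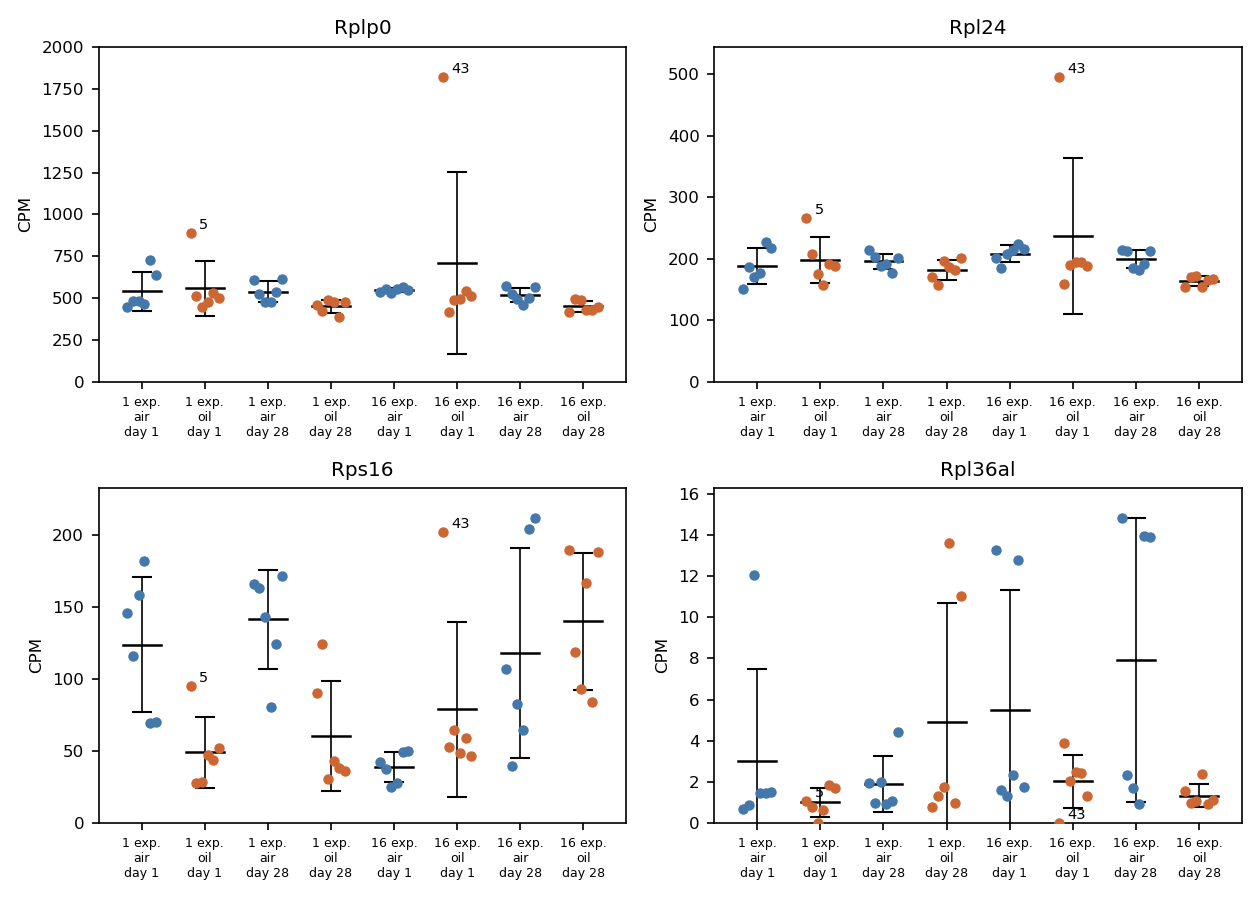
CPM of Rplp0, Rpl24, Rps16 and Rpl36al (y axes from 0) for each animal (points) in the 8 groups, air blue and oil vapor orange, with mean lines and SD bars that are cut at 0. Animals 43 and 5 lead Rplp0 and Rpl24, and oil vapor lungs 28 days after 16 exposures lie below air lungs of that time and schedule for Rpl24. Rps16 varies widely between animals, and Rpl36al is high in 8 animals only.

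The stalk genes Rplp0 and Rplp1, whose products recruit elongation factors, passed no test between groups, though both were called in the slope on the erythroid level over all libraries. Rplp0 had its smallest p at 28 days after 16 exposures in the fit without animal 43, from 418 over a median of 437 to 492 CPM after oil vapor and from 461 over 511 to 572 CPM after air, with overlap (-0.23, SE 0.057, adjusted p = 0.0738 without animal 43, and 0.984 with it). At 28 days after 1 exposure it ran from 384 over 467 to 488 CPM against 475 over 528 to 615 CPM (-0.29, SE 0.14, adjusted p = 0.623). At 1 day after 16 exposures it was at 0.61 with animal 43 (SE 0.31, adjusted p = 0.556) and -0.16 without (SE 0.060, adjusted p = 0.237). Rplp1 was at -0.15 (adjusted p = 0.992) 28 days after 16 exposures and at 0.40 (adjusted p = 0.696) 1 day after, or -0.28 (SE 0.091, adjusted p = 0.167) without animal 43. Rplp2 was too low to be tested. Rpsa, a small subunit protein also known as the laminin receptor, ran from 302 to 561 CPM over all libraries and differed from air by -0.11 to 0.16 in the 4 comparisons of all libraries, with adjusted p of 0.741 or more.

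The other paralogs had no called difference in the oil vapor comparisons. Rpl10l was at 0.76 (SE 0.32, adjusted p = 0.450) 1 day after 1 exposure, and at -0.14, -0.04 and -0.07 in the other 3. Rps27l, a relative of Rps27 under p53 control, was at -0.26 (SE 0.12, adjusted p = 0.532) 1 day after 16 exposures, Rps10l1 at -0.30 (SE 0.14, adjusted p = 0.980) and Rpl22l1 at -0.21 (SE 0.14, adjusted p = 0.980) 28 days after 16 exposures. Rps4y2, Rpl31l4 and Rpl7l1 had smallest adjusted p values of 0.797, 0.667 and 0.567 over the 4 comparisons of all libraries, and Rps19bp1 of 0.726.

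Genes that share the TOP tract or the ribosome's supply were read beside the members. Of 23 other TOP and translation genes, 20 were lower in oil vapor 28 days after 16 exposures (median -0.05), none called, with Tomm20 at -0.17 and Naca at -0.11. In this comparison 52.5% of all genes were higher and none was called. Without animal 43, Tpt1, a translationally controlled growth protein, fell (-0.51, SE 0.10, adjusted p = 0.038), where 61 of 15090 genes were called lower. The summed level of this list ran from 7652 to 8094 CPM after oil vapor and from 8094 to 8947 CPM after air. Of 19 regulators of ribosomal protein translation or transcription 12 were higher (median 0.05), with Zbtb7a at 0.18 (adjusted p = 0.942) and Larp1 at 0.11 (adjusted p = 0.98). Their sum was 1927 ± 27.7 CPM after oil vapor and 1843 ± 30.2 CPM after air. Of 70 mitochondrial ribosomal protein genes 43 were lower (median -0.04), and ribosome biogenesis genes were split, 14 higher and 14 lower (median -0.007), with Fbl, the methylase of ribosomal RNA, at -0.36 (SE 0.16, adjusted p = 0.98) and Myc at 0.27.

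In the other oil vapor comparisons no gene of these 4 lists was called. After 1 exposure, 12 of 23 other TOP and translation genes were higher at 1 day (median 0.02) and 7 of 23 at 28 days (median -0.06), and 17 of 23 were higher 1 day after 16 exposures (median 0.10, and -0.06 with 9 higher without animal 43). Of all genes 53.3%, 52.5% and 54.7% were higher in these comparisons, and 49.7% in the last without animal 43. The nucleolar genes Nolc1 and Ncl were at 0.21 (SE 0.059, adjusted p = 0.215) and 0.44 (SE 0.13, adjusted p = 0.224) 1 day after 16 exposures. Between 28 and 1 days in air on that schedule Nolc1 rose (0.34, SE 0.059, adjusted p = 0.0179), as did Naca, of the complex on nascent chains (0.31, SE 0.060, adjusted p = 0.0222). In that comparison 40 of 15005 genes were called higher with animal 43 in the fit, and 159 of 15090 without it. The initiation factor Eif4b rose between these times in air on the single exposure schedule (0.17, SE 0.042, adjusted p = 0.0199), where 149 of 14820 genes were called higher.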

How the data were processed

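RNA-seq of 48 rat lungs was deposited as 2 tables of raw gene counts, 1 for each exposure schedule, which the authors made on the build Rnor_6.0. The submitters' processing notes name HISAT2 2.1.0 and HTSeq 0.6.1 beside Trimmomatic 0.35, bcl2fastq 2.19 and SAMtools 1.8. Annotation, strand setting and treatment of reads with several matches are not given in the sources used here. Replicates are numbered animals, and all 120 pairs of libraries within groups differed by more than sampling noise (chi-square per gene of 2.6 or more). Counts were tested in R 4.3.3 with edgeR 4.0.16 (TMM, filterByExpr, quasi-likelihood test on group means, two-sided, Benjamini-Hochberg over all genes tested, threshold 0.05). Fits used the 24 libraries of a schedule, or all 48 for differences between schedules. Of the members, 78 (single exposure), 79 (16 exposures) and 80 (all) passed the filter, where Rplp2 never did, Rpl8 did only over all 48 libraries, and Rpl36al did not on the single exposure schedule. SE is the log2 fold change divided by the root of F. On simulated data with 6 rats a group, the test recovered 39% of 100 genes changed by 1.25 times and 96% of 100 changed by 2 times in the 1 day single exposure comparison of 14731 genes, and 20% and 95% in the 16 exposure comparison of 14917 genes. Alternatives used DESeq2 1.42.0, limma 3.58.1 (voom with sample weights), other size factors, filters and sets of libraries. Levels are CPM of all gene counts, and floors and SDs cover counting and animal spread only.

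Members and lists were chosen with earlier results of these data known. Genes named are, in each comparison, the members past the threshold (or the 3 of smallest p), the stalk genes and Rpsa, paralogs, the 3 most and least variable members, and the 2 of smallest p in related lists, of which a part is printed. Values of 2 genes are not reported here, and 1 member is left out of the map of members. Rpl7, Rpl18, Rpl6, Rps4x, Rps15a, Rpl21, Rps26, Rpl35 and Rpl37 were added after their values were seen. One animal's description names the table of the other schedule. Its title and column were followed.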

Additional observations from a re-analysis of the deposited data

Results flagged for a closer look

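Of 96 checks, 12 quantities in 8 groups of 6 rats, 18 found 1 animal far from its 5 group mates, and chance marks about 5% of groups. The 18 cannot be set against that rate. The quantities share libraries, and Rplp2, Rpl36al and Rps19 are the members with the widest spread within groups. Animals 43 and 5 account for the family-wide flags. The share of counts in ribosomal protein genes was 2.54% in animal 43, with 1.11% to 1.41% in its group mates, and 1.67% in animal 5, with 1.24% to 1.38%. Rplp0 was at 1818 CPM in animal 43 (others 419 to 539) and 887 CPM in animal 5 (449 to 533), and Rplp1 at 490 CPM (133 to 155) and 255 CPM (120 to 164). Rps16 was at 202 CPM in animal 43 (46 to 64.6) and 94.9 CPM in animal 5 (27.7 to 51.8).

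The others each concern 1 gene. Rplp2 was at 13.1 CPM in animal 39 (others 0.374 to 0.988), 7.16 CPM in animal 43 (0.584 to 0.919), 2.1 CPM in animal 92 (0 to 0.782) and 40.6 CPM in animal 20 (0.163 to 1.72). Rpl36al was at 12.1 CPM in animal 3 (0.663 to 1.52) and 4.44 CPM in animal 23 (0.898 to 1.98). Rps19 was at 59.7 CPM in animal 36 (5.23 to 24). Rpl10a was high in animal 9, at 162 CPM (128 to 137), and low in animal 89, at 99.5 CPM (112 to 118), and Rpl3 was low in animal 86, at 326 CPM (366 to 376).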

How the results depend on the processing

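The labels name no pairing, since each animal number belongs to 1 rat and is shared by no 2 groups. Differences between schedules took the libraries as independent, and the likeness of Alas2 counts by rank entered no fit. The number of members called, 0 unless stated, is given with the share of all genes called in that direction in parentheses. It was 1 with DESeq2 (0.0661%) 1 day after a single exposure. At 28 days after 16 exposures it was 4 lower without animal 43 (0.404%) and 5 lower with only the 12 libraries compared (0.934%), and 0 to 4 on leaving out 1 animal. In air on the single exposure schedule it was 1 lower (2.24%), and 0 with only 12 (1.8%) or with all 48 libraries (1.68%), and 0 to 1 on leaving out 1 animal. In air on the 16 exposure schedule it was 0 in the fit reported (0.267% higher), 1 higher with DESeq2 (0.929%), all 48 libraries (0.62%) or the erythroid covariate (0.586%), 2 with limma-voom (1.19%), without animal 43 (1.05%) or with only 12 libraries (0.648%), and 0 to 2 on leaving out 1 animal. For the schedule difference at 1 day it was 1 higher with DESeq2 (0.365%) and 1 with the erythroid covariate (0.0848%).

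Medians changed sign as follows. One day after 16 exposures the 0.13 became -0.050 with limma-voom, -0.106 without animal 43 and -0.021 with the erythroid covariate, and ran from -0.106 to 0.225 on leaving out 1 animal. The schedule difference at 1 day became -0.093, -0.192 and -0.038 under these settings. With the covariate, the median also became 0.063 (single exposure, 28 days), 0.023 (16 exposures, 28 days), -0.059 (air, 16 exposures), and 0.017 and 0.037 for the change with time after 1 and 16 exposures. At 28 days after 16 exposures the covariate fit without animal 43 kept the sign, at -0.164 with 71 of 79 members lower. Leaving out 1 animal gave -0.037 to 0.003 at 28 days after 1 exposure and -0.164 to -0.130 at 28 days after 16. It gave 0.012 to 0.121 at 1 day after 1 exposure, lowest without animal 5. The cause of these changes was not tested. The erythroid covariate, alone or without animal 43, and the comparison of animal 44 with 4 mates were chosen after seeing the data. Other size factors, no filter on low counts, and leaving out paralogs kept the direction of each of the 10 medians and its count of calls. With 3 counts at up to 1.95 CPM, values of Rplp2, Rpl8, Rpl10l and Rpl36al rest on few reads.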
